A study of Mus musculus with 8 samples.

Results

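The 8 genes described here, Tcf7, Lef1, Gata3, Bcl11a, Bcl11b, Tox, Satb1 and Myb, encode transcription factors that take part in the specification of the T lineage. They were chosen by name, and every probe whose transcript identifier mapped to one of these symbols was taken, which gave 10 probes for 8 of the 20125 named genes on the array. Tcf7 had a brighter probe (A_52_P244702) and a dimmer one (A_55_P2109633), Bcl11b likewise had a brighter probe (A_51_P171772) and a dimmer one (A_52_P925277), and each of the other genes had 1 probe. The samples were hematopoietic progenitor lines from Ebf1-deficient mouse fetal liver, which lack EBF1, a factor needed for early B-cell development, so that this deficiency was shared by all 4 groups, the control groups included. Pro-B(+) cells were a line kept on OP9 stromal cells that can enter the T lineage, and pro-B(-) cells were a line kept on TD7 thymic stromal cells that cannot, both with the cytokines SCF, Flt3L and IL-7. The 2 transduced groups were made from the pro-B(-) line, with an empty vector for pro-B(-)/Mock cells or, for pro-B(-)/LMO2 cells, a vector with Lmo2, which encodes a bridging protein of hematopoietic transcription factor complexes. Each group had 2 one-colour arrays, and the stroma and any Notch ligand used for the transduced cells are not given in the labels, nor whether replicates were separate cultures. Each parental group was 1 line, the line and the stromal cells of its culture cannot be told apart, and p-values measure only the spread between arrays, which may be technical.

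When a progenitor reaches the thymus, Notch signaling switches on a small set of transcription factors. TCF-1, encoded by Tcf7, is among the earliest of them, and together with GATA3 it opens the T-cell program and then induces Bcl11b, whose product closes the way to other lineages. LEF1 is a close relative of TCF-1, Bcl11a encodes a relative of BCL11B that is active in progenitors before commitment, TOX is an HMG-box protein of early T cells and innate lymphoid cells, SATB1 organizes chromatin in thymocytes and their progenitors, and c-Myb, encoded by Myb, is needed in progenitors and in early thymocytes. Tcf7, Gata3 and Tox are also active in innate lymphoid cells, and Bcl11a and Myb in B-cell progenitors, so that none of these genes marks T cells alone.

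Per array, 56.5% to 61.2% of probes had a signal well above background, and 0 probes were saturated. The Lmo2 probe, read as a check of the labels, was 2.76-fold brighter in the pro-B(+) line than in the pro-B(-) line and 1.53-fold brighter in Lmo2-transduced than in empty-vector cells, and the probe of the deleted gene Ebf1 was above background on each of the 8 arrays, its position relative to the deleted part not examined here. The arrays of the parental lines lay on 1 slide and those of the transduced cells on another, so that these 2 comparisons were made within a slide. In the comparisons across slides, slide and group cannot be told apart. In bulk RNA such as this, fewer cells that express a gene and less RNA per cell cannot be told apart either.

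To show the sequence next to these genes, upstream windows of 250 bases were taken from RefSeq (build GRCm38.p6) for 7 of the 8 genes, 15 windows in all. Of these, 3 lay wholly outside the annotated gene, and they are printed for that reason alone. They belong to Lef1, whose probe rose above background only in pro-B(-)/LMO2 cells, and to Satb1 and Myb, whose probes were bright in every group. Each is written 5′ to 3′ in the direction of transcription, with CG dinucleotides, the sites of DNA methylation, in capitals. The Lef1 window lies on the plus strand at chr3:131110047-131110296, the Satb1 window on the minus strand at chr17:51833291-51833540, and the Myb window on the minus strand at chr10:21160985-21161234.
Lef1: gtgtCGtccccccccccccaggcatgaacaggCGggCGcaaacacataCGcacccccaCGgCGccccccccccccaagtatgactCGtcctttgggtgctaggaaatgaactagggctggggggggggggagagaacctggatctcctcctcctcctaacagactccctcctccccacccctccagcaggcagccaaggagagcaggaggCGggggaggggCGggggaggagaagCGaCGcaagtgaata
Satb1: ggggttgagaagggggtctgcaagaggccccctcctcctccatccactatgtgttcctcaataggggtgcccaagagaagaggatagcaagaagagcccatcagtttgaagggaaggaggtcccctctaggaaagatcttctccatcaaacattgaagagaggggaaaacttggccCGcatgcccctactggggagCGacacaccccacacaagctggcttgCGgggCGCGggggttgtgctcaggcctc
Myb: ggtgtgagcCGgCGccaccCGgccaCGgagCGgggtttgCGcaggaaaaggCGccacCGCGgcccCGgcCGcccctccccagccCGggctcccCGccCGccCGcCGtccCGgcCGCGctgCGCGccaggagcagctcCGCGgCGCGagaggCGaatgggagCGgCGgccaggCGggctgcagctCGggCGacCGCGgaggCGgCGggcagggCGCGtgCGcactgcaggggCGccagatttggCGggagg
The printed Lef1 window held 11 CG dinucleotides and the printed Satb1 window 5. Another of the 5 Satb1 windows (chr17:51832648-51832897, minus strand) held 41, which 1.09% of all windows reach. The Myb window held 40, a number that 1.31% of the 32851 windows reach, against a median of 6. The Tcf7 window that lies farthest upstream (chr11:52283015-52283264, minus strand) held 37, which 2.20% of all windows reach, and the Bcl11a window (chr11:24080445-24080694, plus strand) held 16. Of the motifs searched on both strands, the TCF/LEF letters CTTTGA were found in 2 of the 15 windows, the Bcl11b window and another Lef1 window, and 13.8% of all windows hold them. The RBPJ letters TGGGAA were in the Bcl11a window and in 1 of the 5 Satb1 windows (21.6% of all windows), and the E-box letters CANNTG in the Tcf7 and Bcl11a windows among others (66.2% of all windows). The Runx letters TGTGGT (14.0% of all windows) and the GATA letters AGATAA (9.99% of all windows) were in none of the 15, and no match of one motif overlapped a match of another. These matches describe letters only, and binding or methylation was not measured here.

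Levels are given as normalized log2 signal, with the 75th percentile of the array at 0, so that a step of 1 is a doubling of signal. Levels of different probes are not comparable with each other. A probe counts as dim in a group where neither array was well above background, and a fold against such a group is a lower bound. An adjusted p printed beside a bound belongs to the difference fitted from the dim values as read, not to the bound. Such a probe entered the test only through the group where it was bright, so its call adds no support of its own. The brighter Tcf7 probe read -2.90 and -2.88 in pro-B(+) cells and 1.80 and 1.79 in pro-B(-)/LMO2 cells. It read -7.80 and -7.46 in pro-B(-) cells and -7.61 and -6.96 in pro-B(-)/Mock cells, where it was not well above background on any of the 4 arrays. Tcf7 signal was thus present in pro-B(+) cells, high in pro-B(-)/LMO2 cells and dim in the other 2 groups, whose values overlapped each other and lay below all values of the first groups. The dimmer probe gave the same order of the 2 bright groups, with -5.23 and -5.28 in pro-B(+) cells and -0.81 and -0.73 in pro-B(-)/LMO2 cells, and it was dim on all 4 arrays of pro-B(-) and pro-B(-)/Mock cells. Lef1 read -1.35 and -1.43 in pro-B(-)/LMO2 cells. Its 6 other values, -6.49 and -6.14 in pro-B(+) cells, -7.92 and -7.59 in pro-B(-) cells and -8.30 and -7.12 in pro-B(-)/Mock cells, were not well above background. Lef1 was therefore detected in 1 of the 4 groups, and the order of the others cannot be read.

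Gata3 was well above background on all 8 arrays. It read -1.63 and -1.64 in pro-B(-) cells, -1.24 and -1.10 in pro-B(+) cells, -0.75 and -0.77 in pro-B(-)/Mock cells and -0.12 and -0.24 in pro-B(-)/LMO2 cells. The 4 groups followed each other in that order without overlap, over a range of group means of 1.46 in log2. Bcl11a had 2 separate levels. It read 2.51 and 2.57 in pro-B(+) cells and 2.10 and 2.06 in pro-B(-)/LMO2 cells, against -3.09 and -2.97 in pro-B(-) cells and -3.76 and -3.81 in pro-B(-)/Mock cells. All 8 values were well above background, and the range of the group means was 6.33, so that the signal in the 2 lower groups is a measured one and its folds are not bounds.

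The brighter Bcl11b probe ran the other way. It read -5.07 and -4.63 in pro-B(-)/LMO2 cells, -2.90 and -3.01 in pro-B(+) cells, -2.36 and -2.04 in pro-B(-) cells and -1.78 and -1.73 in pro-B(-)/Mock cells. It was lowest in pro-B(-)/LMO2 cells and well above background throughout, and no values of neighbouring groups overlapped, although the SD of the 2 pro-B(-) arrays was 0.22 and the distance of their mean to that of pro-B(-)/Mock cells was 0.45. The dimmer Bcl11b probe had the same order of groups, from -3.01 and -3.16 in pro-B(-)/Mock cells down to -6.91 and -6.97 in pro-B(-)/LMO2 cells, where it was dim. Tox read 0.34 and 0.33 in pro-B(+) cells, 0.59 and 0.57 in pro-B(-) cells, 1.70 and 1.72 with the empty vector and 2.80 and 2.80 with Lmo2, so that the 4 groups did not overlap. Satb1 had the narrowest range of the 8 genes, 0.33, with 3.70 and 3.73 in pro-B(+) cells, 3.89 and 3.96 in pro-B(-) cells, 3.92 and 3.96 in pro-B(-)/Mock cells and 3.59 and 3.62 in pro-B(-)/LMO2 cells. For Satb1 the values of pro-B(-) and pro-B(-)/Mock cells overlapped. Myb read 4.15 and 4.07 in pro-B(+) cells, 4.87 and 4.92 in pro-B(-) cells, 5.07 and 5.13 in pro-B(-)/Mock cells and 4.63 and 4.62 in pro-B(-)/LMO2 cells. Its 4 groups did not overlap, and the lowest was the line with T-lineage potential.

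**Figure D1:**
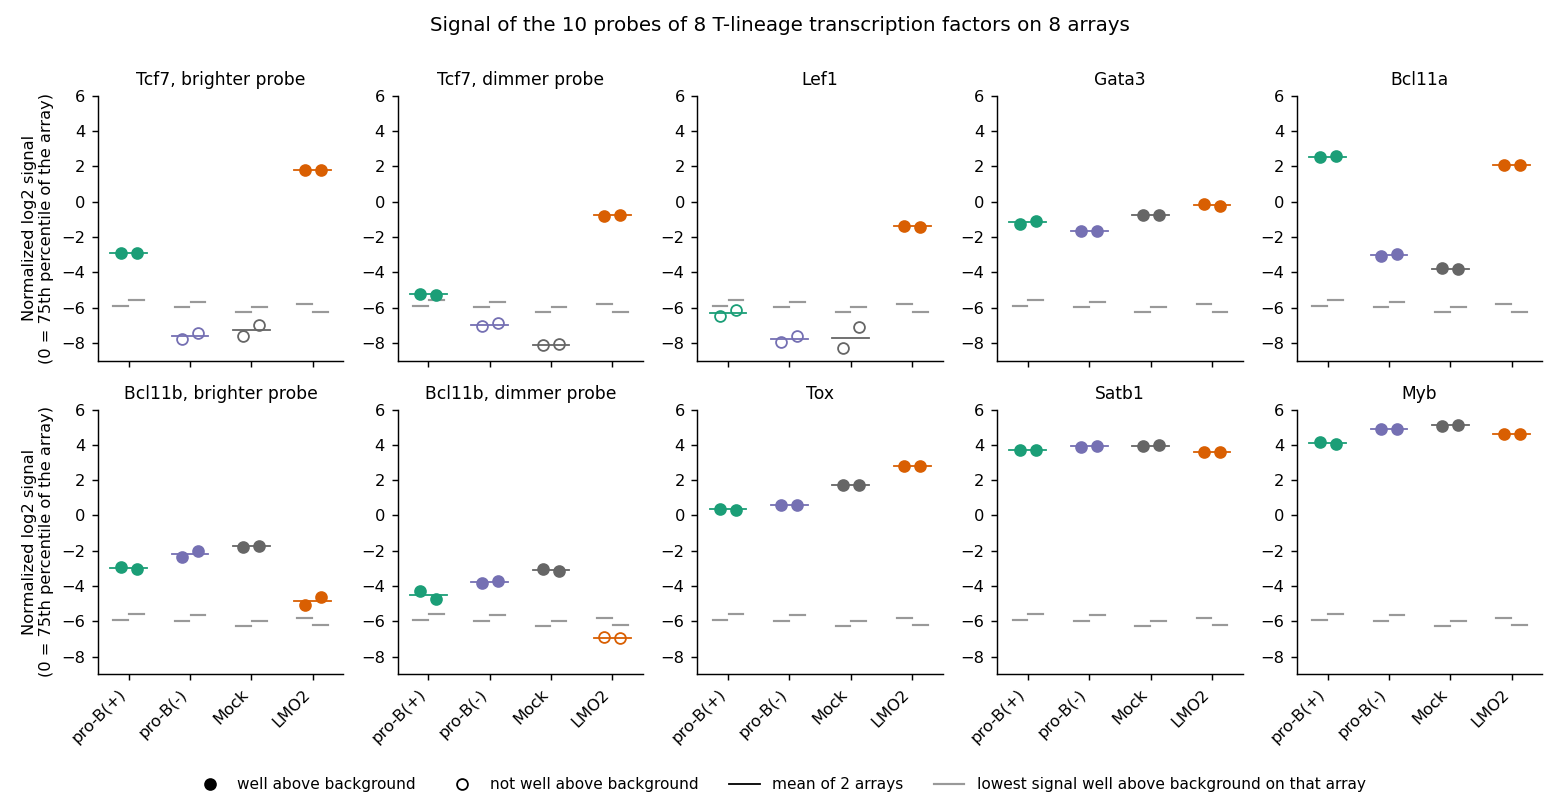
Normalized log2 signal (vertical axis, 0 is the 75th percentile of the array) of each of the 10 probes on the 2 arrays of each group (horizontal axis, where Mock and LMO2 are the transduced pro-B(-) cells). Filled circles are arrays on which the probe was well above background, open circles are arrays on which it was not, coloured lines are the mean of 2 arrays, and grey lines are the lowest signal well above background on that array. Tcf7 and Lef1 have open circles in 2 and 3 groups, the dimmer Bcl11b probe has them in pro-B(-)/LMO2 cells, and Bcl11a sits near 2 in pro-B(+) and pro-B(-)/LMO2 cells and near -3 and -4 in the others.

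To ask which of these factors distinguish the line with T-lineage potential, the 2 parental lines were set against each other. Tcf7 and Bcl11a were clearly higher in pro-B(+) cells, Gata3 was slightly higher, and Bcl11b, Tox, Satb1 and Myb were lower, all by less than 2-fold. Tcf7 was at least 7.54-fold higher by its brighter probe (limma adjusted p = 2.4e-05) and at least 1.46-fold higher by its dimmer probe (adjusted p = 1.7e-05), the second bound being low because that probe was near background in pro-B(+) cells too. Bcl11a was 47.6-fold higher (log2 5.57, SE 0.053, adjusted p = 2.4e-07). Gata3 was 1.38-fold higher (log2 0.47, SE 0.062, adjusted p = 0.0019). Lef1 was dim in both lines and was not tested, so that no fold is given.

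Myb was 1.73-fold lower in the line with this potential (log2 -0.79, SE 0.044, adjusted p = 4.9e-05). Bcl11b was 1.69-fold lower by the brighter probe (log2 -0.76, SE 0.17, adjusted p = 0.013) and 1.68-fold lower by the dimmer one (log2 -0.75, SE 0.14, adjusted p = 0.0075). Tox was 1.18-fold lower (log2 -0.24, SE 0.030, adjusted p = 0.0014) and Satb1 1.16-fold lower (log2 -0.21, SE 0.039, adjusted p = 0.0067). The call of the brighter Bcl11b probe rested on single arrays, since without pro-B(+) replicate 2 its adjusted p was 0.074 and without pro-B(-) replicate 2 it was 0.069. In all, 9 of 9 tested probes were called, 4 higher and 5 lower, beside 49.2% of the 23454 probes tested, 20.8% higher and 28.4% lower. Of the 9 probes, 3 were called and changed at least 2-fold, both probes of Tcf7 and that of Bcl11a, beside 11.1% of all probes tested. The sizes for dim groups in that count are fitted values. In the spread of single arrays, 9 of 9 probes did not overlap between the lines, beside 77.2% of all probes tested. Both Tcf7 probes stand in that count against a dim group.

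To ask what the Lmo2 vector changed, the Lmo2-transduced cells were set against the empty-vector cells. Tcf7, Lef1 and Bcl11a were much higher with Lmo2, Tox and Gata3 were moderately higher, Bcl11b was clearly lower, and Satb1 and Myb were slightly lower. Tcf7 was at least 238-fold higher by its brighter probe (adjusted p = 1.9e-06) and at least 40.1-fold higher by its dimmer probe (adjusted p = 2.0e-07). Lef1 was at least 26.1-fold higher (adjusted p = 4.7e-05). Bcl11a was 58.4-fold higher (log2 5.87, SE 0.053, adjusted p = 1.8e-07). Of these 3 genes, only Bcl11a was well above background in both groups, and its distance was several times the spread between replicates. Tcf7 and Lef1 were dim with the empty vector, so that their lack of overlap between the groups adds no support of its own.

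With Lmo2, Tox rose 2.13-fold (log2 1.09, SE 0.030, adjusted p = 3.1e-06) and Gata3 1.49-fold higher (log2 0.58, SE 0.062, adjusted p = 0.00045). Bcl11b was 8.54-fold lower by the brighter probe (log2 -3.09, SE 0.17, adjusted p = 3.2e-05) and at least 7.61-fold lower by the dimmer one (adjusted p = 8.1e-06). Bcl11b was thus the only one of the 8 genes to fall by more than 2-fold. Myb was 1.39-fold lower (log2 -0.48, SE 0.044, adjusted p = 0.00023) and Satb1 1.26-fold lower (log2 -0.33, SE 0.039, adjusted p = 0.00068). All 10 probes were called, 6 higher and 4 lower, beside 64.8% of the 22988 probes tested, 28.4% higher and 36.4% lower. Of the 10 probes, 7 were called and changed at least 2-fold, beside 10.4% of all probes tested, and 10 of 10 did not overlap between the groups, beside 83.6% of all probes tested. In these counts both Tcf7 probes, Lef1 and the dimmer Bcl11b probe stand with fitted values against a dim group.

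Small changes depend on how arrays are scaled. With each array centred on its median, the median change over all probes tested moved from -0.04 to -0.33 between the parental lines and from -0.04 to -0.25 for the Lmo2 vector, and the probes called over the whole array became 2943 higher and 15641 lower, and 4054 higher and 12445 lower, in place of 4876 and 6666, and of 6530 and 8373. All member probes tested kept their direction and their call under this scaling in both comparisons, with Gata3 at log2 0.18 between the parental lines. Normexp background correction, which adds a fixed offset to the signal and so pulls dim values together, left all of these calls and directions but shrank the changes of dim probes, with Tcf7 at log2 1.26 between the parental lines and 5.02 with Lmo2, Lef1 at 2.25 with Lmo2 and Bcl11b at -1.63 with Lmo2, and Bcl11a at 4.69 and 4.59. The Tcf7 values of both comparisons and the Lef1 value then lie below the bounds given for them, which therefore hold for the processed signal of the scanner software and not for this correction.

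**Figure D2:**
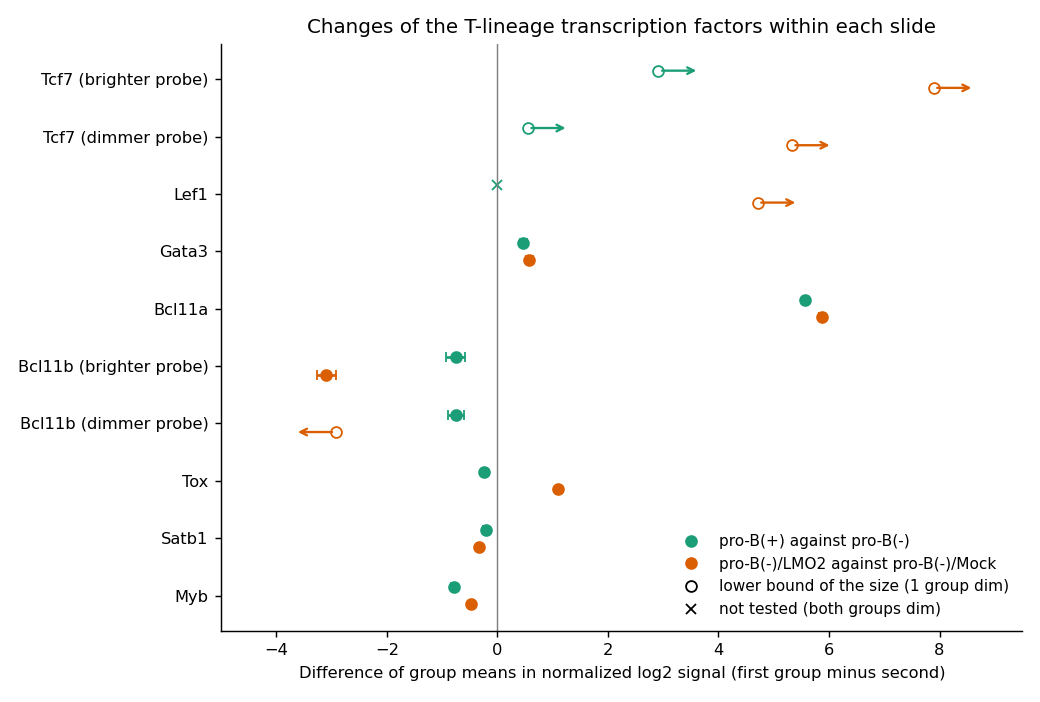
Difference in normalized log2 signal (horizontal axis) for the 10 probes (vertical axis), between the parental lines (green) and between Lmo2-transduced and empty-vector cells (orange). Filled circles are differences of group means with the SE of the limma fit, open circles with arrows are lower bounds of the size where 1 group was dim, and the cross marks Lef1, dim in both parental lines. Bcl11a lies above 5 in both comparisons, Tcf7 has a bound of 2.91 and 7.89, Bcl11b falls to -3.09 with Lmo2, and Tox lies on opposite sides of 0.

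The 2 effects were then set against each other in the same fit, as the parental difference minus the Lmo2 difference, 2 differences that share no array. The parental difference of Tox was lower than the Lmo2 difference by log2 1.34 in size (estimate -1.34, SE 0.043, adjusted p = 1.6e-05), since Tox fell in the first comparison and rose in the second. Bcl11b fell less between the parental lines than with Lmo2, by log2 2.34 for the brighter probe (SE 0.24, adjusted p = 0.00072), while the dimmer probe has only a bound with Lmo2 and no size is given for it. Myb differed by -0.31 (SE 0.062, adjusted p = 0.0084). For Bcl11a the difference of the effects was -0.30 (SE 0.075, adjusted p = 0.020), and it turned to 0.10 (adjusted p = 0.34) with another background correction. For Gata3 it was -0.11 (SE 0.089, adjusted p = 0.35) and for Satb1 0.12 (SE 0.056, adjusted p = 0.13), neither of which passed the test. For Tcf7 both effects were bounds, and for Lef1 the parental lines were both dim, so that neither a size nor a direction of the difference can be read. In all, 8 of 10 probes were called, 2 higher and 6 lower, beside 54.1% of the 24572 probes tested, 29% higher and 25.1% lower, but 4 of these calls (both Tcf7 probes, Lef1 and the dimmer Bcl11b probe) rest on fitted dim signals and are not read here. The other calls were 4 of the 6 probes with a measured signal in every group.

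Both vectors were also set against the parental lines, across slides. In pro-B(-)/Mock cells against the parent pro-B(-) line, where Tcf7 and Lef1 were dim on both sides and not tested, Tox was 2.19-fold higher (log2 1.13, adjusted p = 6.5e-06) and Gata3 1.84-fold higher (log2 0.88, adjusted p = 0.00015). Bcl11a was 1.69-fold lower (log2 -0.75, adjusted p = 0.00014). Myb was 1.15-fold higher (adjusted p = 0.0090), and Bcl11b was called by its dimmer probe (log2 0.69, adjusted p = 0.0080) and not by its brighter one (log2 0.45, adjusted p = 0.062). Satb1 was at log2 0.01 (SE 0.039, adjusted p = 0.77). The empty-vector cells thus differed from their parent in 5 of 7 tested probes, 4 higher and 1 lower, beside 59.3% of the 23034 probes tested, 28.5% higher and 30.8% lower, and 6 of 7 did not overlap between the groups, beside 82.8% of all probes tested. Tox alone was called at 2-fold or more, beside 9.33% of all probes tested. For Tox the log2 difference of 1.13 stands beside 1.09 for the Lmo2 vector against the empty one, and for Gata3 0.88 stands beside 0.58, in comparisons that share the empty-vector arrays.

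In pro-B(-)/LMO2 cells against pro-B(+) cells, Tcf7 was 25.7-fold higher by the brighter probe (log2 4.69, SE 0.22, adjusted p = 1.5e-05) and 22.4-fold higher by the dimmer one (adjusted p = 5.7e-07), both groups being well above background. Lef1 was at least 20.3-fold higher (adjusted p = 1.0e-04). Tox was 5.52-fold higher (log2 2.46, adjusted p = 3.1e-07) and Gata3 1.98-fold higher (log2 0.99, adjusted p = 4.5e-05). Bcl11a was 1.37-fold lower (log2 -0.46, adjusted p = 0.00052), a small distance beside its 6.33 range. Bcl11b was 3.71-fold lower by the brighter probe (log2 -1.89, adjusted p = 0.00018) and at least 2.82-fold lower by the dimmer one (adjusted p = 3.4e-05). Myb was 1.43-fold higher (adjusted p = 0.00014), and Satb1 was at log2 -0.10 (adjusted p = 0.055) and did not pass the test. In all, 9 of 10 probes were called, 6 higher and 3 lower, beside 76.4% of the 24121 probes tested, 34.9% higher and 41.5% lower. Of the 10, 6 were called at 2-fold or more, beside 20.9% of all probes tested, and 10 did not overlap between the groups, beside 89.3% of all probes tested. Lef1 and the dimmer Bcl11b probe stand in these counts with fitted values against a dim group.

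The partners and relatives of these factors were described by the brightest probe of each gene. Between the parental lines, where 25.6% of named genes were called higher and 27.2% lower, the family relatives had 3 of 6 tested genes higher and 0 lower, with Tcf7l2, a TCF of the same family, at log2 0.68 and Tox2 at 0.32. The cofactors of TCF and LEF proteins had 1 of 9 higher and 4 lower, none by 2-fold, for example Tle1, a Groucho corepressor, at log2 0.26 and Bcl9, a beta-catenin coactivator, at -0.33. The subunits of the NuRD complex and FOG1, which bind BCL11 and GATA proteins, had 1 of 13 higher, Zfpm1 (which encodes FOG1, log2 0.43), and 6 lower, with Mta3 at -0.67. With Lmo2, where 31.1% of named genes were called higher and 37.8% lower, the family relatives had 2 of 7 higher and 2 lower, with Tcf7l2 at log2 0.43 and Mybl2 at -0.59. The cofactors then had 1 of 9 higher and 1 lower, the latter Ctnnb1, which encodes beta-catenin, at -0.56. The NuRD and FOG list had 2 of 13 higher and 6 lower, with Hdac2 at -0.75. No gene of the cofactor list or of the NuRD and FOG list was called at 2-fold or more in either comparison. The family relatives had 1 such gene in each, higher in both. Of the factors, 2 of 7 tested were called at that size between the parental lines and 5 of 8 with Lmo2. Tcf7 in both comparisons and Lef1 with Lmo2 count there by fitted values against a dim group. Over all named genes, 1418 of 13209 tested were that much higher and 300 lower between the parental lines. With Lmo2 these were 1067 and 372 of 12917.

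The other early T-cell regulators had 6 of 14 tested genes higher and 5 lower in pro-B(+) cells, with Id3, an inhibitor of E proteins, at log2 2.94, Notch3 at 1.51 and Runx1, a Runt factor of progenitors and thymocytes, at -1.11. With Lmo2 they had 6 of 14 higher and 4 lower, with the Notch target Dtx1 at log2 1.31, Id2 at 1.04, Runx3 at 1.02 and the repressor Gfi1 at -0.57. T-lineage identity genes, such as parts of the T-cell receptor complex and its signaling chain, had 10 of 18 higher and 5 lower in each comparison, with a median change of 0.28 and 0.41 in log2 beside -0.01 and -0.03 over all named genes. Between the parental lines Cd2 was at log2 1.84, whereas Thy1 was at -0.995 and Rag1, which cuts receptor genes for recombination, at -0.77. With Lmo2, Rag1 was at log2 -2.78, Rag2 at -2.11 and Cd5 at -1.77. Il2ra, which encodes CD25, a marker of cells that have entered the T-cell program, was dim in pro-B(-) and pro-B(-)/Mock cells, at least 3.93-fold higher in the pro-B(+) line (adjusted p = 0.00069) and at least 134-fold higher with the Lmo2 vector (adjusted p = 9.8e-06). The list did not move one way in either comparison.

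**Figure D3:**
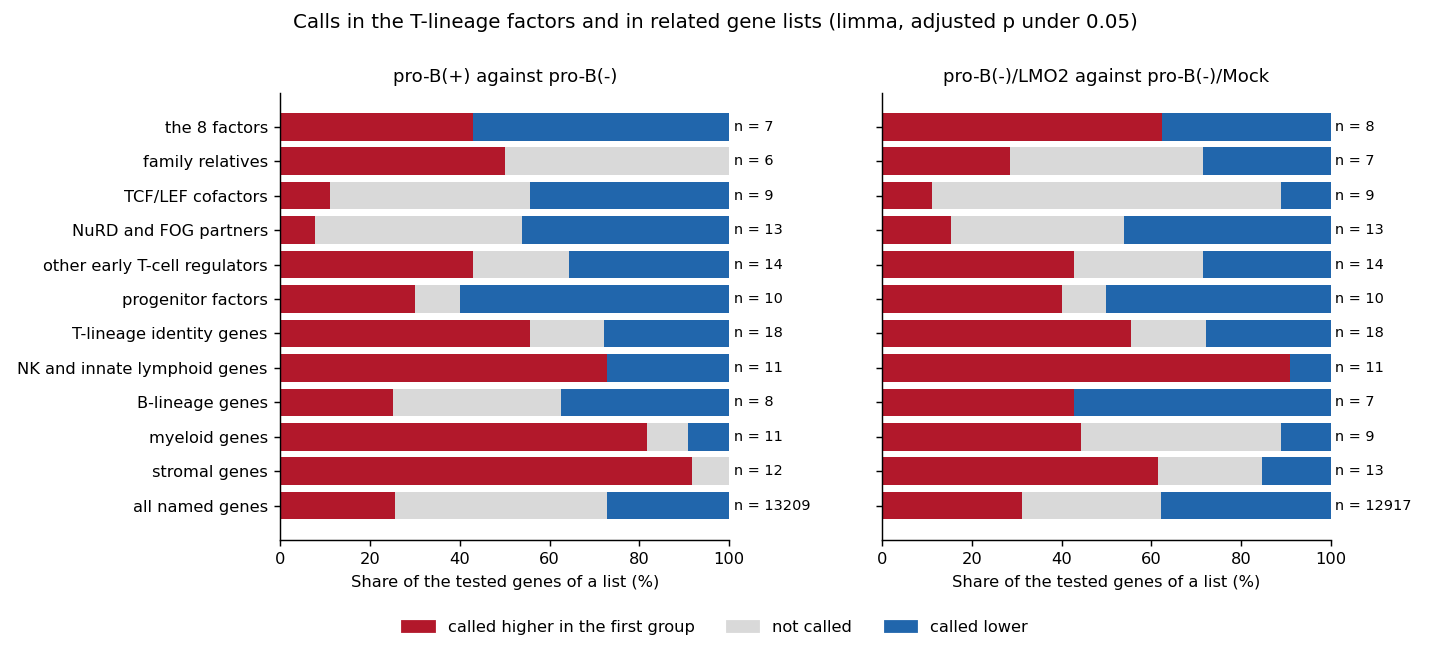
Share of the tested genes of each list (horizontal axis, percent, 1 probe per gene) that limma called higher in the first group (red), called lower (blue) or did not call (grey), between the parental lines (left) and between Lmo2-transduced and empty-vector cells (right), with the number tested at the right of each bar. All 8 factors were called with Lmo2, 5 higher and 3 lower, and among the other lists the NK and innate lymphoid genes had 10 of 11 higher there.

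Markers of other lineages moved beside these factors, and their part in the changes of the 8 genes was not tested. NK and innate lymphoid genes had 8 of 11 tested genes higher and 3 lower in pro-B(+) cells, and 10 of 11 higher and 1 lower with Lmo2, where Klrd1, an NK receptor chain, was at log2 5.17, Nkg7 at 2.56 and Il2rb at 2.29. The summed level of the 14 genes, in multiples of the 75th percentile of the array, was 10.6 to 10.9 in pro-B(+) cells, 6.72 to 6.78 in pro-B(-) cells, 13.4 to 14.1 with the empty vector and 56.2 to 57.1 with Lmo2. Such a sum weighs bright genes most. Il18r1 of this list had log2 group means of -1.10, 1.83, 3.16 and 4.84 in the same order. The order of the sums therefore need not hold for the other genes. Ncr1 and Klrk1, which encode receptors carried by NK cells, were not well above background in any of the 4 groups and were not tested. Myeloid genes had 9 of 11 higher and 1 lower in pro-B(+) cells, with Csf1r at log2 4.45 and Mpo at 3.43, and 4 of 9 higher and 1 lower with Lmo2, with Mpo at 4.38. Their summed level was 54.3 to 54.7 in pro-B(+) cells, 10.2 to 11.1 in pro-B(-) cells, 11.49 to 11.93 in pro-B(-)/Mock cells and 26.2 to 27.6 in pro-B(-)/LMO2 cells, with S100a8 and S100a9 well above background in pro-B(+) cells alone.

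Stromal genes, read because the cells grow on stromal layers, had 11 of 12 higher and 0 lower in pro-B(+) cells, with Col1a1 at log2 1.65, and 8 of 13 higher and 2 lower with Lmo2, with Pdgfrb at 1.05. Their summed level was 30.3 to 30.9 in pro-B(+) cells, 14.2 to 14.8 in pro-B(-) cells, 31.0 to 32.2 with the empty vector and 37.1 to 38.1 with Lmo2. B-lineage genes had 2 of 8 higher and 3 lower in pro-B(+) cells, with Blnk, an adaptor of the B-cell receptor, at log2 4.85, and 3 of 7 higher and 4 lower with Lmo2, with Blnk at 2.11. Ms4a1, a marker of B cells, was not well above background in any group, and the summed level of the list was 3.00 to 4.51 over the 8 arrays. Progenitor factors had 3 of 10 higher and 6 lower in pro-B(+) cells, with Meis1 at log2 5.75 and Erg at -1.32, and 4 of 10 higher and 5 lower with Lmo2, with Erg at -4.42, Meis1 at -1.13 and Hoxa9 at -1.09. Their summed level was 59.8 to 60.3 in pro-B(+) cells, 70.6 to 74.6 in pro-B(-) cells, 62.3 to 62.4 with the empty vector and 40.3 to 40.6 with Lmo2. Lyl1, the brightest gene of that list, weighs most in this sum, with log2 group means of 5.36, 5.78, 5.56 and 4.65 in the same order.

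Finally, the genes whose profile over the 4 groups lay nearest to each factor were taken, by the root mean square difference of the 4 group means after each gene was centred on its own mean, with dim values raised to the lowest signal well above background, among 13723 genes. Nearest to Tcf7 were the chemokine gene Ccl5 (difference 0.43 in log2), Il2ra (0.44) and the chemokine gene Xcl1 (0.64). Tcf7, Il2ra and Xcl1 were all dim in pro-B(-) and empty-vector cells, where the floor sets their values. Ccl5 had group means of 1.08 in pro-B(+) cells, -1.94 in pro-B(-) cells, -2.76 with the empty vector and 6.34 with Lmo2, and it was well above background throughout. Nearest to Bcl11a were H2-Aa, a class II antigen presentation gene (0.21), Ccl4 (0.23) and Ifitm6 (0.28), of which Ccl4 was the only one measured above background in all groups, with means of 1.57, -3.59, -4.20 and 1.18 in the same order. Nearest to Bcl11b were Gas7 (0.10), Retnlb (0.23) and Cpeb1 (0.25), and nearest to Tox were Mgst2 (0.035), Paqr8 (0.084) and Zdhhc8 (0.10). Nearest to Gata3 were Slc8b1 (0.033), H2bc23 (0.042) and Whrn (0.043). Paqr8 was dim in pro-B(+) cells and Slc8b1 in pro-B(-) cells, where the floor sets their values. For Lef1 the nearest were Ccl1 (0.064), Nipal1 (0.084) and Klk1b11 (0.092), all dim in the same 3 groups as Lef1, where the floor sets their profile. Satb1 and Myb, with ranges of 0.33 and 0.995 in log2, varied too little for this comparison. Over 4 points such likeness is a description, and it says nothing of shared control.

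**Figure D4:**
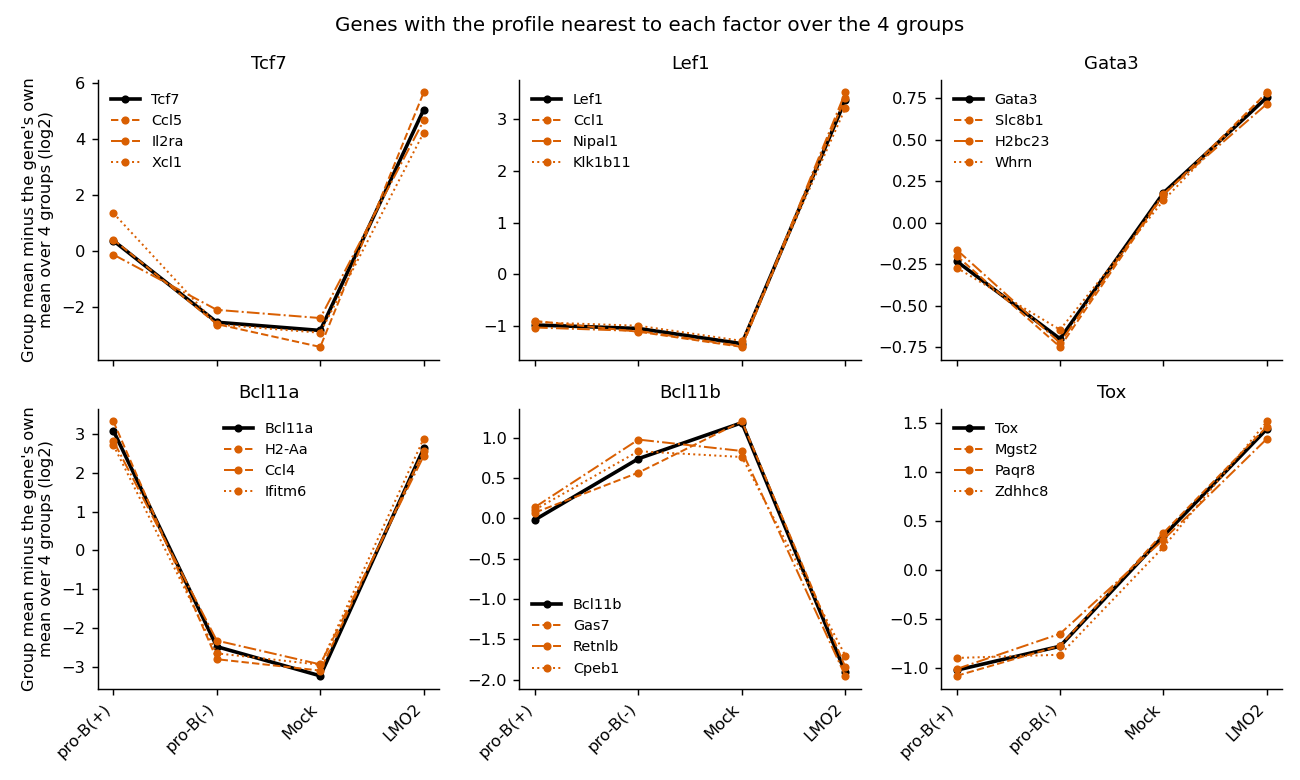
Group means minus the gene's own mean over the 4 groups, in log2 (vertical axis), with dim values raised to the lowest signal well above background, for 6 factors (black) and the 3 genes nearest to each (orange, broken lines), over the 4 groups (horizontal axis). Tcf7 and Il2ra both peak with Lmo2, and their low points in pro-B(-) and empty-vector cells, where both were dim, are set by the floor. Bcl11a is high in pro-B(+) and Lmo2-transduced cells, and Bcl11b is lowest with Lmo2.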

How the data were processed

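RNA of 8 samples was labelled with Cy3 and hybridised to one-colour Agilent arrays. The spot intensity was deposited as written by Agilent Feature Extraction 11.5.1.1, per the file headers, background subtracted and detrended within each array, with the build of the design given as mm9. The authors also deposited a log2 matrix after 75th percentile normalization in GeneSpring, used here as an alternative, and each of its columns differed from log2 of the intensity by 1 constant for probes with a single spot. Groups came from the sample titles. The design text of the series names the arrays titled as empty vector simply as the line without potential and mentions no vector, so that the comparisons with pro-B(-)/Mock cells rest on the titles. The 8 genes, and the lists of related genes, were chosen with earlier results of these data known.

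Control and outlier spots were left out, spots of a probe were averaged, and 39378 of 39429 probes were kept. Values were the log2 processed intensity, less each array's 75th percentile. Probes were named through a RefSeq gene table, which matched 26550 probes (67.4%), and the brightest probe stood for a gene. All 8 arrays entered 1 fit in limma 3.58.1 (R 4.3.3) with 4 group means and 4 residual degrees of freedom. Probes entered a comparison when 1 of its groups had a signal well above background on both arrays, and those with an adjusted p under 0.05 (Benjamini-Hochberg) were called. With 2 arrays against 2 an exact permutation test (2-sided) cannot go below 0.333, so none was run. Limma tested each probe with an estimate of its spread that borrows from the other probes tested. A bound sets the bright mean against a floor, which on each dim array is the probe's own signal or the lowest signal of any probe well above background there, whichever is higher, averaged over the dim arrays. The number of arrays limits the precision. All probes of the 8 genes were named, and for other lists at most 4 genes per comparison, those with the largest change among genes called and well above background on all arrays compared, apart from a few that are not reported here. For each factor whose group means ranged over at least 1 in log2, the 3 genes with the nearest profile were named. Replicates agreed at r = 0.999 with an SD of differences of 0.130 to 0.150 over 20364 probes. Alternatives covered scaling, background correction, filters, the variance model, a replicate block and single arrays left out.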

Additional observations from a re-analysis of the deposited data

How the results depend on the processing

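Over all alternatives, the differences of single factors kept direction and call in 600 cases, lost the call in 7, gained it in 8 and turned direction in 4. With only probes well above background on every array compared, 6 of 6 tested probes of the 8 factors were called with Lmo2, in place of 10 of 10, and 4 of 6 for the difference of the effects, in place of 8 of 10, since Tcf7, Lef1 and the dimmer Bcl11b probe leave the test by construction. Without single arrays the probes called ranged from 8 to 9 between the parental lines, from 4 to 6 for empty-vector cells against the parent line and from 7 to 8 for the difference of the effects, and stayed at 10 with Lmo2 and at 9 for pro-B(-)/LMO2 against pro-B(+) cells. Directions turned for Satb1 in empty-vector cells against the parent line, from 0.01 to -0.030 with normexp background correction and within -0.018 to 0.046 without single arrays (below 0 without pro-B(-)/Mock replicate 2 or pro-B(-) replicate 1), and for Bcl11a in the difference of the effects, at 0.095 with normexp. That Bcl11a difference also missed the threshold with no filter on dim probes (adjusted p = 0.062) and without pro-B(+) replicate 1 (0.065), pro-B(-)/Mock replicate 2 (0.068) or pro-B(-)/LMO2 replicate 1 (0.067), and the Myb call in empty-vector cells was lost without pro-B(-)/Mock replicate 2 (0.055). The cause of these moves was not tested. The sizes of dim genes move most, with the fitted Tcf7 difference between the parental lines ranging from log2 1.26 to 4.91 and its Lmo2 difference from 5.02 to 9.40. Normexp was run on the median spot signal, an alternative added after seeing the data, and the planned form was not run because it needs a mean spot signal, and the scanner columns give the spot signal as a median.

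The replicate numbers are shared by the groups, but the deviations of equally numbered arrays correlated at only -0.027 to 0.051 between groups, so the arrays share a number and no more. With the replicate number as a block, the probes of the 8 factors called were 9, 10, 5, 10 and 8 in the 5 comparisons, in place of 9, 10, 5, 9 and 8, the added call being Satb1 in pro-B(-)/LMO2 against pro-B(+) cells (adjusted p = 0.039). Signal over background limits Tcf7, Lef1 and the dimmer Bcl11b probe, for which bounds alone can be given against dim groups.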
